A study of Mus musculus with 12 samples.

Results

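The genes described here are receptor tyrosine kinases outside the EGFR family, their ligands and the proteins that bind those ligands, measured in mouse glioma cells taken out of the brain. Members were every gene symbol of Fgf followed by a digit, Fgfr1 to Fgfr4 and every symbol of Igfbp followed by a digit, together with listed genes of the PDGF, VEGF, IGF, MET, KIT, TAM, NTRK, RET, ALK and DDR families. They came to 61 genes of the 19938 that were tested. The tumor cell lines compared were pEGFR-Hi and pEGFR-Lo. Both came from a single pool of neural progenitor cells, taken from the subventricular zone of mice null for Ink4a/Arf, so both lacked that locus, and both carried human EGFRvIII, a shortened EGFR that signals without ligand. They were named for high and low EGFRvIII phosphorylation and each had been passaged through a mouse brain as an intracranial tumor before it was used. ZsGreen-tagged cells of either line, expanded in defined medium, were put into the brains of syngeneic FVB mice (2 µl at 200000 cells per µl), and RNA of the sorted ZsGreen-positive cells of 6 mice with pEGFR-Hi tumors and 6 mice with pEGFR-Lo tumors was measured on 1 array per mouse. Brains were collected near each group's own median survival, which was shorter for pEGFR-Hi, so tumor line and time since injection cannot be told apart. Each group is 1 tumor line, and p-values therefore reflect the spread among mice and not among lines.

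Most receptor tyrosine kinases cross the cell membrane once, dimerise when a ligand binds outside the cell and phosphorylate each other on tyrosine. They pass the signal to the RAS-MAPK and PI3K-AKT pathways, the same pathways that EGFR uses. Binding proteins such as the IGFBPs and the heparan sulfate of the cell surface set how much ligand reaches a receptor, and Sprouty and DUSP proteins damp the signal inside the cell. In glioma, PDGF, FGF, MET and IGF1R signaling are known to run beside EGFR, and VEGF made by tumor cells acts on the vessels around them.

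Values are log2 signals after RMA, which makes the distribution of all arrays alike, so a change in total RNA per cell cannot be seen, and in sorted bulk RNA a gene lower in every cell cannot be told apart from fewer cells that express it. Signals of different probe sets are not on a common scale, and a value is compared here only with the same gene's value in the other mice. Background was taken as 4.11, the 95th percentile of the mean signals of 1016 olfactory receptor genes, which brain tumor cells should not express. A gene was called higher or lower in pEGFR-Hi when limma gave a Benjamini-Hochberg adjusted p under 0.01 over all genes and the difference was at least 2-fold. No pair of the 12 arrays held identical values, and correlations were 0.991 to 0.994 among pEGFR-Hi arrays, 0.985 to 0.993 among pEGFR-Lo arrays and 0.944 to 0.959 between the groups. Cdkn2a, the gene of the Ink4a/Arf locus, read 5.26 ± 0.13 in pEGFR-Hi and 5.36 ± 0.14 in pEGFR-Lo (SD, n = 6 each), but whether its probes lie in the deleted part is not known here and these values check no label. On a list of interferon-stimulated genes, 16 of 19 measured were called higher in pEGFR-Hi, and the list's mean level was 7.84 to 9.06 in pEGFR-Hi mice, against 5.09 to 6.86 in pEGFR-Lo mice, with pEGFR-Lo mice 3 and 6 the lowest at 5.15 and 5.09. Of 10 immediate early genes, which respond to tissue dissociation among other stimuli, 7 were higher in pEGFR-Hi, with a mean level of 9.81 to 10.14 in pEGFR-Hi mice and 8.34 to 8.86 in pEGFR-Lo mice. Astrocyte markers had a mean level of 5.94 to 6.28 in pEGFR-Hi mice, against 7.18 to 7.59 in pEGFR-Lo mice, with 1 of 9 (Gfap) called higher in pEGFR-Hi and 4 of 9 lower. What part these 3 lists have in the differences that follow was not tested.

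Growth factor genes mostly stood lower in pEGFR-Hi where they differed. Of the 61 members, 12 were called: Mertk was higher in pEGFR-Hi, while Fgf1, Fgf11, Pdgfc, Igf1r, Insr, Igfbp3, Igfbp7, Kit, Ntrk2, Ntrk3 and Ptn were lower. That is 1.64% of members higher and 18% lower, beside a background over all genes of 3.99% called higher and 5.06% called lower in pEGFR-Hi. The other 49 were not called. The median difference over all 61 members was -0.09 on the log2 scale, beside 0.01 over all genes tested, so most members did not move far. Of the 61, 42 were above background in both groups, 46 in at least 1 group and 15 in neither. A further 8 members had an adjusted p under 0.01 with less than a 2-fold difference, of which Tyro3, Axl and Met had higher means in pEGFR-Hi and Fgf18, Pdgfa, Vegfc, Igfbp2 and Alk had lower ones. Over all genes, 18.6% were in that class, so it was not more frequent among the members. Values of the pEGFR-Hi and pEGFR-Lo mice did not overlap for 18 members, with pEGFR-Hi above for 3 and below for 15. Over all genes, 23.3% did not overlap, with pEGFR-Hi above for 12.2% and below for 11.1%.

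**Figure D1:**
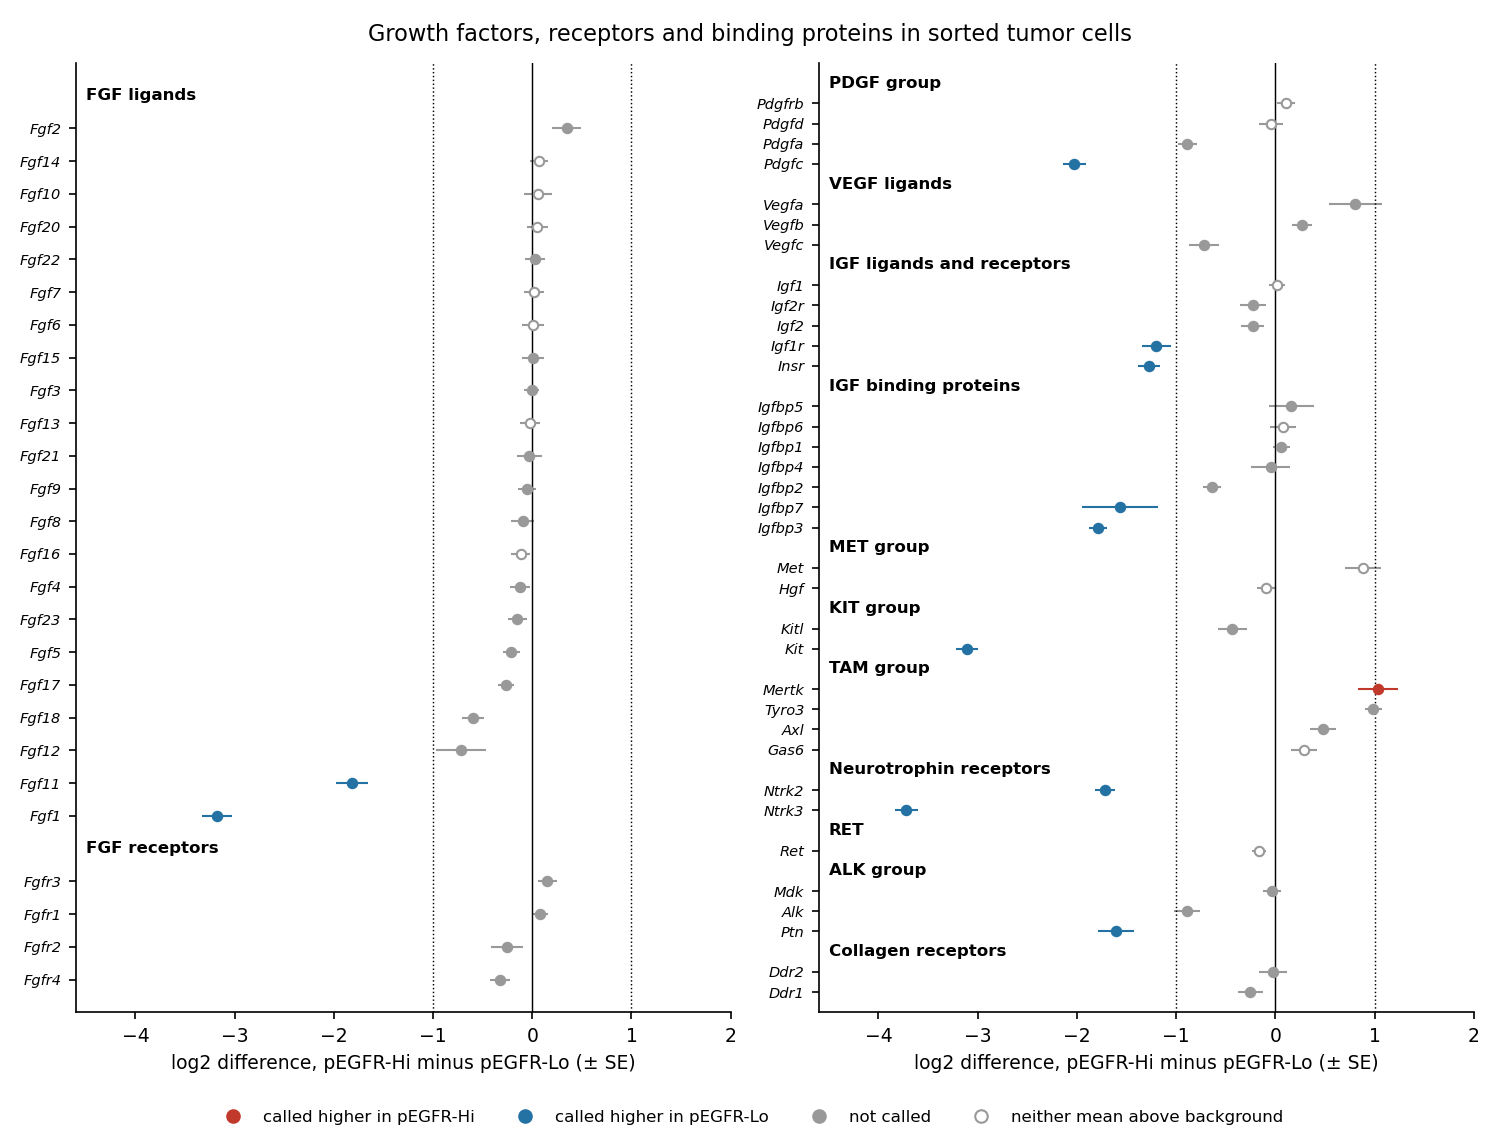
Difference in log2 signal, pEGFR-Hi minus pEGFR-Lo, for the 61 growth factor members arranged by role, with bars for the standard error and color for the call. Points left of 0 are lower in pEGFR-Hi; 11 called members lie there, from Ntrk3 at -3.72 to Igf1r at -1.20, and Mertk at 1.04 is the 1 called member to the right.

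The promoters of 4 members on which the results turn are shown because Mertk was called higher in pEGFR-Hi, Kit and Ptn were called lower, and Tyro3, a TAM receptor like Mertk, had a higher mean in pEGFR-Hi just short of the 2-fold limit. They are RefSeq windows of GRCm38.p6, from 250 bases before to 50 bases after the gene's start, at chr2:128698665-128698964 (plus strand) for Mertk, chr2:119799264-119799563 (plus strand) for Tyro3, chr5:75574737-75575036 (plus strand) for Kit and chr6:36810130-36810429 (minus strand) for Ptn. Each is written 5′ to 3′ on the gene's strand, and capitals mark matches to a GC box (GGGCGG, or its reverse complement CCGCCC).
Mertk: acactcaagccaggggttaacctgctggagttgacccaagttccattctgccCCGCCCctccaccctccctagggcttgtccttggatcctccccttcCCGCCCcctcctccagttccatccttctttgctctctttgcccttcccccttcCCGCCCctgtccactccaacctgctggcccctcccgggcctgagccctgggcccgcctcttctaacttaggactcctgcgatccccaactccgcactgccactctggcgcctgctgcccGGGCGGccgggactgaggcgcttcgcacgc
Tyro3: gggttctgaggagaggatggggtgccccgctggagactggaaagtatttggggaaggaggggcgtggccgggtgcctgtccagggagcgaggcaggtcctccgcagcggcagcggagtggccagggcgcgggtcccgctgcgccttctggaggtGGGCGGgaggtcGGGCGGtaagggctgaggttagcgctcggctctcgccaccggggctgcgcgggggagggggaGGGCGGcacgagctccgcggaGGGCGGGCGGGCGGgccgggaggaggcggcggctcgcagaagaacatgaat
Kit: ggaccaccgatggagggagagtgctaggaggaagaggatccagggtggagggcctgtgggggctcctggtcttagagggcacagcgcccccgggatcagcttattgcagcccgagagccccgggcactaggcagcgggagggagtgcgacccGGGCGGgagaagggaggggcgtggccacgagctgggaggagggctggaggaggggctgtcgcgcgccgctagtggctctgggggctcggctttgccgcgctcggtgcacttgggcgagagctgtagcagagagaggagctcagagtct
Ptn: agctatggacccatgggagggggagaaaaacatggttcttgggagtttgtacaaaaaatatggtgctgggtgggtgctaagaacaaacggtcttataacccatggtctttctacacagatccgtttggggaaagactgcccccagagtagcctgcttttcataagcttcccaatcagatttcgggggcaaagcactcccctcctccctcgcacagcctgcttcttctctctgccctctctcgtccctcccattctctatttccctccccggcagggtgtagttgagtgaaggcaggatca
Mertk held 4 GC boxes, Tyro3 6, some of them overlapping, Kit 1 and Ptn none. GC content was 66% in the Mertk window, 73.3% in Tyro3, 69% in Kit and 52% in Ptn. Kit had 2 windows, and only the one further upstream is shown and counted here, while Mertk, Tyro3 and Ptn had 1 each. Windows were found for 49 of the 61 members, 67 windows in all. A GC box stood in 62.7% of these 67 windows, beside 35.7% of 32851 windows of all genes, and in 5 of 9 windows of the members called lower in pEGFR-Hi. The median GC content was 62.7% in member windows and 52.7% in all windows. Searched on both strands in the same way, TATAAA was in 11.9% of member windows and 13.6% of all windows, CAGCTG in 13.4% and 16.3%, TGANTCA in 8.96% and 7.81%, and TTCNNNGAA in 2.99% and 8.30%. The last 3 of these motifs read the same on both strands, and a match is a description of letters only.

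Most FGF genes were near background or alike in their means, and the 2 that were called, Fgf1 and Fgf11, were both lower in pEGFR-Hi. They were 9.09% of the 22 FGF genes, near the 9.05% of all genes called in either direction (5.06% called lower). Fgf1, the FGF that binds all FGF receptors, had lowest, median and highest values of 4.16, 4.54 and 5.06 in pEGFR-Hi mice, against 7.58, 7.74 and 7.99 in pEGFR-Lo mice. Every pEGFR-Hi mouse lay below every pEGFR-Lo mouse, and the level was 9.03-fold lower in pEGFR-Hi (a difference of -3.18 ± 0.15 SE, adjusted p = 1.72e-10 from limma). Fgf11, one of the FGF homologous factors that stay inside the cell and bind sodium channels, read 3.98, 4.19 and 4.46 in pEGFR-Hi mice, against 5.28, 6.10 and 6.44 in pEGFR-Lo mice. Its pEGFR-Hi mice sat around background without overlap with the pEGFR-Lo mice, a 3.52-fold lower level (a difference of -1.82 ± 0.16 SE, adjusted p = 2.33e-07). Fgf18, a secreted ligand best known in cartilage and bone, was 1.52-fold lower in pEGFR-Hi (4.94 ± 0.19 in pEGFR-Hi and 5.54 ± 0.22 in pEGFR-Lo, SD, n = 6 each; adjusted p = 4.44e-04 from limma), also with no overlap. Fgf12, a further homologous factor, averaged 3.66 ± 0.28 in pEGFR-Hi and 4.38 ± 0.68 in pEGFR-Lo, Fgf17 differed by -0.27, and neither passed the limit (limma adjusted p = 0.034 and 0.019). Fgf2, the FGF that neural stem cells are cultured with, averaged 5.04 ± 0.30 in pEGFR-Hi and 4.69 ± 0.27 in pEGFR-Lo (SD, n = 6 each; limma adjusted p = 0.0768). Of the 22 FGF genes, which include such homologous factors, 15 were above background in at least 1 group, and Fgf6, Fgf7, Fgf10, Fgf13, Fgf14, Fgf16 and Fgf20 in neither. The 16 FGF genes besides Fgf1, Fgf2, Fgf11, Fgf12, Fgf17 and Fgf18 differed by -0.21 (Fgf5) to 0.072 (Fgf14). At an unadjusted p under 0.05, 1 of the 22 was higher and 6 were lower in pEGFR-Hi, which for the lower ones is near the share of all genes (23% higher and 19.8% lower).

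FGF receptors showed no call. Fgfr1, the main FGF receptor of neural progenitors, averaged 8.53 ± 0.081 in pEGFR-Hi and 8.46 ± 0.13 in pEGFR-Lo (SD, n = 6 each), a difference of 0.077 with overlapping groups (limma adjusted p = 0.509). Fgfr3, which marks astrocytes and radial glia, averaged 5.82 ± 0.11 in pEGFR-Hi and 5.66 ± 0.21 in pEGFR-Lo (limma adjusted p = 0.267). Fgfr2 and Fgfr4 lay nearer to background, with differences of -0.26 and -0.33 (limma adjusted p = 0.256 and 0.0178). Limma and SAM each called 0 of the 4 receptors, and at an unadjusted p under 0.05 limma had 0 higher and 1 lower in pEGFR-Hi, beside 23% and 19.8% of all genes. The difference of Fgfr1, 0.077 ± 0.078 SE, was smaller than the range of either group of mice.

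Of the PDGF ligands among the members, Pdgfc was called lower in pEGFR-Hi, and Pdgfa had a lower mean that did not pass. Pdgfc, a ligand of PDGFRα that needs its CUB domain removed to become active, read 3.93, 4.19 and 4.34 in pEGFR-Hi mice, against 5.90, 6.21 and 6.42 in pEGFR-Lo mice. Its pEGFR-Hi mice lay on both sides of background and the pEGFR-Lo mice well above it, 4.08-fold apart (a difference of -2.03 ± 0.12 SE, adjusted p = 1.14e-09 from limma). Pdgfa, the PDGFRα ligand that drives oligodendrocyte precursors, read 6.31, 6.46 and 6.58 in pEGFR-Hi mice, against 7.09, 7.31 and 7.64 in pEGFR-Lo mice. The groups did not overlap, but the 1.85-fold lower level in pEGFR-Hi (limma adjusted p = 1.97e-06) missed the 2-fold limit. The means of Pdgfd and of Pdgfrb, the receptor of pericytes, were below background in both groups. Pdgfra, which is no member but encodes PDGFRα, the receptor named above for Pdgfa and Pdgfc, averaged 4.28 ± 0.27 in pEGFR-Hi and 5.26 ± 0.22 in pEGFR-Lo (SD, n = 6 each). It was 1.97-fold lower in pEGFR-Hi and just missed the limit (a difference of -0.98 ± 0.13 SE, adjusted p = 1.35e-05 from limma), which it passed without pEGFR-Hi mouse 1 or pEGFR-Lo mouse 4 or 5. Pdgfb, a further PDGF ligand that is no member, averaged 4.22 ± 0.16 in pEGFR-Hi and 4.07 ± 0.12 in pEGFR-Lo, close to background and not called (limma adjusted p = 0.215). Oligodendrocyte precursor markers, whose list holds 7 genes, had a mean level of 6.66 to 6.88 in pEGFR-Hi mice and 7.12 to 7.54 in pEGFR-Lo mice, with none called by limma or SAM, and their part in these differences was not tested.

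VEGF ligands split by member and none was called. Vegfa, the hypoxia-induced ligand that makes vessels grow and leak, stood at 10.14, 9.13, 9.54, 9.19, 10.22 and 8.97 in pEGFR-Hi mice 1 to 6, against 9.0, 9.45, 8.13, 8.70, 9.07 and 8.0 in pEGFR-Lo mice 1 to 6. The groups overlapped and the 1.75-fold higher mean in pEGFR-Hi did not pass the limit (a difference of 0.81 ± 0.26 SE, adjusted p = 0.0251 from limma). The lowest pEGFR-Lo mice for Vegfa, 3 and 6, were also those with the lowest interferon-stimulated genes. Without both of them the Vegfa difference was 0.48 (limma adjusted p = 0.167), but leaving out the 2 lowest pEGFR-Lo values makes it smaller in any case. That value therefore says nothing about the interferon-stimulated genes, whose part was not tested. Vegfc, which acts on lymphatic vessels through VEGFR3, went the other way and read 6.06, 6.78 and 7.14 in pEGFR-Hi mice, against 7.18, 7.45 and 7.59 in pEGFR-Lo mice. It was 1.65-fold lower in pEGFR-Hi (limma adjusted p = 0.00109) and its groups did not overlap. Vegfb averaged 8.27 ± 0.19 in pEGFR-Hi and 8.0 ± 0.16 in pEGFR-Lo (SD, n = 6 each; limma adjusted p = 0.0522). At an unadjusted p under 0.05 limma had 2 of the 3 ligands higher and 1 lower in pEGFR-Hi, beside 23% and 19.8% of all genes, and SAM called none.

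Both signaling receptors of the insulin-like growth factors were lower in pEGFR-Hi. Igf1r, the receptor of IGF1 and IGF2, read 6.06, 6.78 and 7.08 in pEGFR-Hi mice, against 7.58, 7.94 and 8.14 in pEGFR-Lo mice, 2.30-fold lower with no overlap (a difference of -1.20 ± 0.14 SE, adjusted p = 5.40e-06 from limma). Insr, the insulin receptor, which also forms hybrids with IGF1R, read 7.37, 7.77 and 7.93 in pEGFR-Hi mice, against 8.60, 9.06 and 9.14 in pEGFR-Lo mice. Its level was 2.42-fold lower in pEGFR-Hi (a difference of -1.28 ± 0.11 SE, adjusted p = 1.42e-07). Every pEGFR-Hi mouse was below every pEGFR-Lo mouse for both receptors. The ligand Igf1 was below background in both groups, and Igf2 averaged 4.60 ± 0.19 in pEGFR-Hi and 4.83 ± 0.25 in pEGFR-Lo (SD, n = 6 each; limma adjusted p = 0.16). Igf2r, which clears IGF2 from the surface without signaling, averaged 6.94 ± 0.19 in pEGFR-Hi and 7.17 ± 0.28 in pEGFR-Lo (limma adjusted p = 0.2). Of the adaptors that bind both receptors, Irs2 averaged 9.34 ± 0.11 in pEGFR-Hi and 8.54 ± 0.14 in pEGFR-Lo, 1.74-fold higher in pEGFR-Hi and short of the 2-fold limit (limma adjusted p = 1.20e-06), and Irs1 averaged 9.37 ± 0.27 in pEGFR-Hi and 9.15 ± 0.19 in pEGFR-Lo (limma adjusted p = 0.212).

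IGF binding proteins hold IGFs outside the cell, and 2 of the 7 were called, both lower in pEGFR-Hi. Over all genes 9.05% were called in either direction and 5.06% lower. Igfbp3, the main IGF carrier of blood, read 10.10, 10.19 and 10.28 in pEGFR-Hi mice, against 11.65, 12 and 12.19 in pEGFR-Lo mice. Mice of 1 group differed little, and the level was 3.45-fold lower in pEGFR-Hi (a difference of -1.79 ± 0.091 SE, adjusted p = 3.36e-10 from limma). Igfbp2, known from neural stem cells and glioma, had a 1.55-fold lower mean without overlap and was not called (11.55 ± 0.20 in pEGFR-Hi and 12.19 ± 0.091 in pEGFR-Lo, SD, n = 6 each; limma adjusted p = 4.34e-05). Igfbp7, which binds IGFs weakly and is strong in tumor vessels, was at 4.85, 4.99, 4.52, 4.80, 4.58 and 4.76 in pEGFR-Hi mice 1 to 6, against 6.92, 7.10, 7.39, 4.90, 4.86 and 6.74 in pEGFR-Lo mice 1 to 6. Mice 4 and 5 of pEGFR-Lo were at the level of the pEGFR-Hi mice, so the groups overlapped although the fit gave a 2.96-fold lower level (a difference of -1.57 ± 0.38 SE, adjusted p = 0.00401). The Igfbp7 call was lost without pEGFR-Lo mouse 1, 2, 3 or 6 (adjusted p = 0.0103 to 0.0114 from limma) and with eBayes trend and robust settings (limma adjusted p = 0.0159). Fgf12 had its lowest pEGFR-Lo values in the same 2 mice, at 3.52 and 3.72. Endothelial markers had a mean level of 3.50 to 3.85 in pEGFR-Hi mice and 3.64 to 3.85 in pEGFR-Lo mice, with 7 of 11, Pecam1 and Cdh5 among them, at or below background. Mural cell markers had a mean level of 4.52 to 5.10 in pEGFR-Hi mice and 4.67 to 5.11 in pEGFR-Lo mice, lowest among pEGFR-Lo in mice 4 and 5 at 4.67 and 4.77. Of these 10 markers, Rgs5 was called lower in pEGFR-Hi (3.97 ± 0.30 in pEGFR-Hi, against 7.59 ± 1.24 in pEGFR-Lo, at least 11.1-fold) and Anpep higher (5.35 ± 0.44 in pEGFR-Hi, against 3.63 ± 0.25 in pEGFR-Lo, at least 2.36-fold). The part of these markers in the Igfbp7 values was not tested. Igfbp5 averaged 8.50 ± 0.51 in pEGFR-Hi and 8.33 ± 0.39 in pEGFR-Lo (SD, n = 6 each). Igfbp4 averaged 6.34 ± 0.40 in pEGFR-Hi and 6.39 ± 0.39 in pEGFR-Lo, with overlapping groups as for Igfbp5 (limma adjusted p = 0.64 and 0.892). Igfbp1 averaged 4.39 ± 0.10 in pEGFR-Hi and 4.33 ± 0.16 in pEGFR-Lo, close to background, and Igfbp6 was below it.

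**Figure D2:**
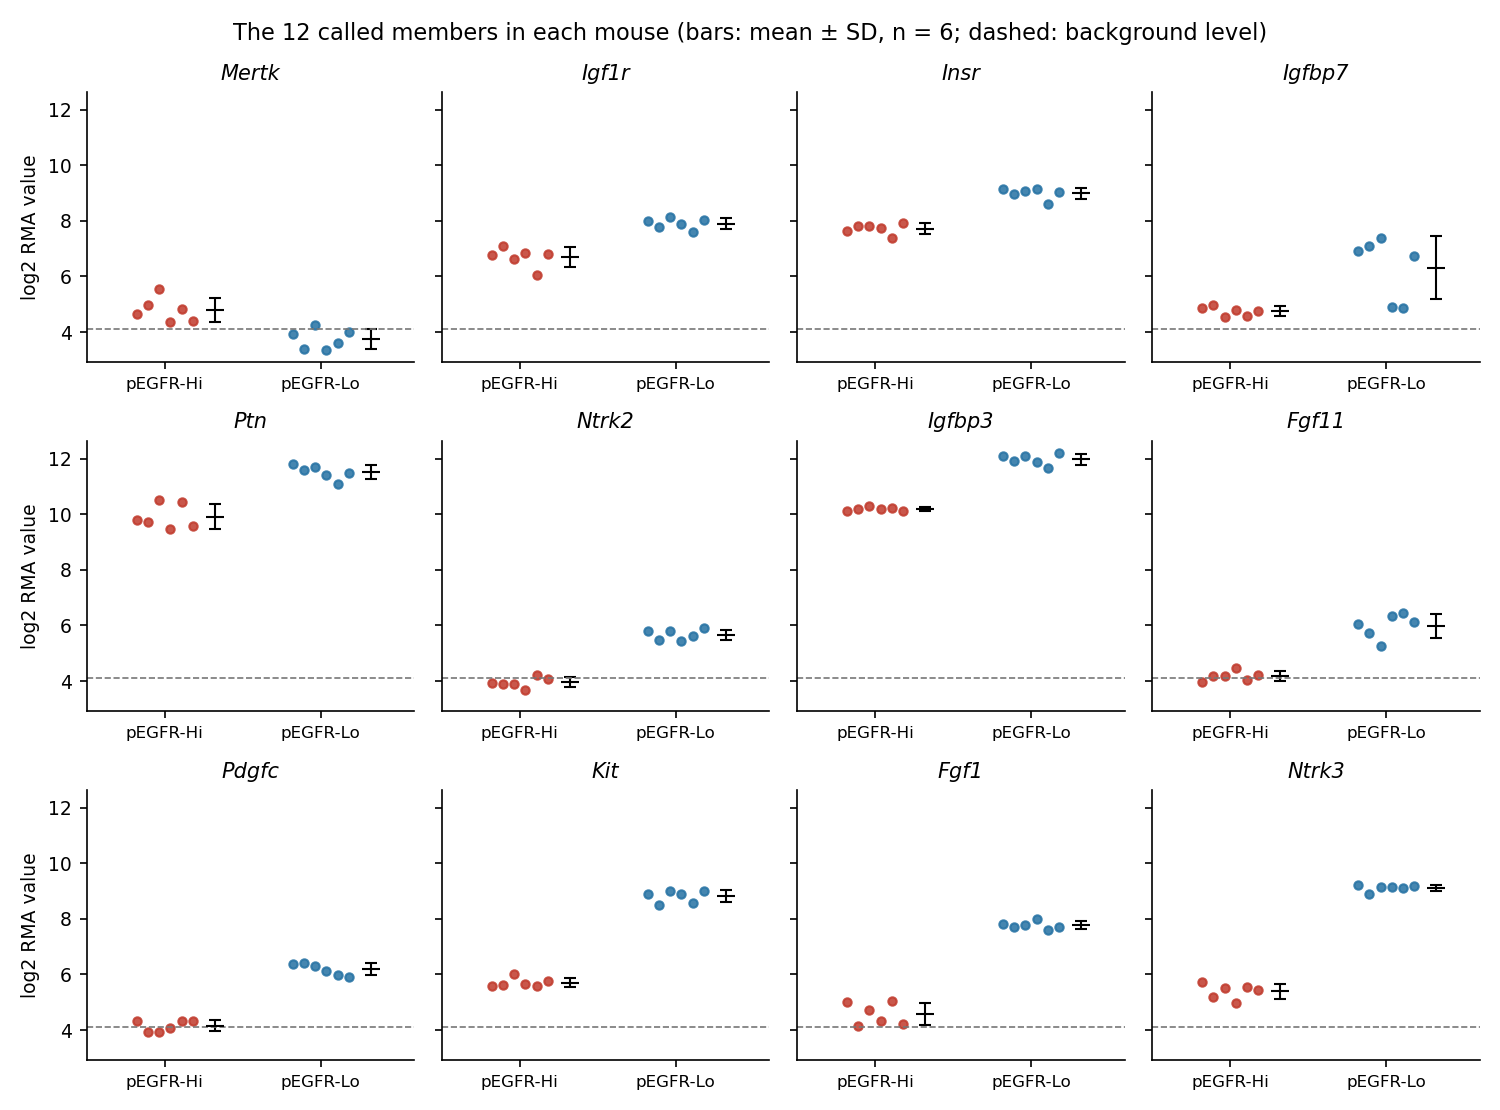
Log2 signal of the 12 called members in each mouse, with pEGFR-Hi left of pEGFR-Lo, 6 mice a group, bars for the mean ± SD and the background of 4.11 dashed. Points of the groups are apart in every panel but Igfbp7, where 2 pEGFR-Lo mice sit among the pEGFR-Hi mice.

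MET and its ligand HGF, which drive cell scattering, had group means below background. Met read 3.65, 3.83 and 4.70 in pEGFR-Hi mice, against 2.81, 2.97 and 3.52 in pEGFR-Lo mice, with no overlap and a limma adjusted p of 0.00107. No fold can be given for such values, and 1 pEGFR-Hi mouse at 4.70 was the highest. Hgf was below background in both groups, at mean values of 2.60 in pEGFR-Hi and 2.69 in pEGFR-Lo.

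After Ntrk3 and Fgf1, Kit had the lowest difference of the 61 members. Kit, the receptor of stem cell factor, known from melanocytes, mast cells and blood stem cells, read 5.57, 5.63 and 6.0 in pEGFR-Hi mice, against 8.49, 8.89 and 9.0 in pEGFR-Lo mice. Every pEGFR-Hi mouse was above background and more than 2 units below every pEGFR-Lo mouse, and the level was 8.63-fold lower in pEGFR-Hi (a difference of -3.11 ± 0.11 SE, adjusted p = 6.01e-12 from limma). Kitl, which encodes stem cell factor itself, averaged 6.97 ± 0.32 in pEGFR-Hi and 7.41 ± 0.24 in pEGFR-Lo (SD, n = 6 each) and did not pass (limma adjusted p = 0.0286). Of the other mast cell markers, Cpa3, Cma1, Fcer1a, Mcpt4 and Tpsb2 were at or below background in both groups, and Hdc averaged 4.69 ± 0.20 in pEGFR-Hi and 4.41 ± 0.17 in pEGFR-Lo (SD, n = 6 each; limma adjusted p = 0.0457).

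TAM receptors bind the vitamin K dependent ligands GAS6 and protein S, recognise dying cells and restrain inflammation, and all 3 had higher means in pEGFR-Hi, with Mertk called. Mertk read 4.35, 4.73 and 5.55 in pEGFR-Hi mice, against 3.36, 3.76 and 4.26 in pEGFR-Lo mice. The pEGFR-Hi mice did not overlap with the pEGFR-Lo mice, whose mean was below background, so the level in pEGFR-Hi was at least 1.6-fold higher (a measured 2.05-fold; a difference of 1.04 ± 0.20 SE, adjusted p = 5.42e-04 from limma). The Mertk call was lost without pEGFR-Hi mouse 3 (0.88) or without pEGFR-Lo mouse 2 (0.96) or 4 (0.96), all log2 differences. Tyro3, the TAM receptor most common in neurons, read 6.95, 7.07 and 7.16 in pEGFR-Hi mice, against 5.82, 6.07 and 6.34 in pEGFR-Lo mice. Its groups lay further apart than those of Mertk relative to their spread, and at 1.98-fold it stood just below the 2-fold limit (a difference of 0.99 ± 0.085 SE, adjusted p = 1.29e-07). Tyro3 was called without pEGFR-Hi mouse 3 (1.01) or pEGFR-Lo mouse 5 (1.04) and with arrays centred on their medians (1.01). Axl, best known from invasive tumors, read 6.99, 7.29 and 7.54 in pEGFR-Hi mice, against 6.37, 6.81 and 7.12 in pEGFR-Lo mice. It was 1.39-fold higher in pEGFR-Hi with overlapping groups (limma adjusted p = 0.00701).

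The TAM ligands were Gas6, a member, and Pros1, which encodes protein S and is no member. Gas6 averaged 4.09 ± 0.33 in pEGFR-Hi and 3.80 ± 0.14 in pEGFR-Lo (SD, n = 6 each), both below background (limma adjusted p = 0.112). Pros1 averaged 8.21 ± 0.26 in pEGFR-Hi and 7.57 ± 0.19 in pEGFR-Lo, 1.55-fold higher in pEGFR-Hi and not called (a difference of 0.63 ± 0.12 SE, adjusted p = 6.23e-04 from limma). Mertk and Axl are also known from macrophages and microglia. Markers of those cells had a mean level of 4.07 to 4.34 in pEGFR-Hi mice, against 4.10 to 4.63 in pEGFR-Lo mice, with Csf1r, Aif1, Itgam and Adgre1 at or below background in both groups. Of the 13 markers, Cd68 was called higher and P2ry12 lower in pEGFR-Hi.

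**Figure D3:**
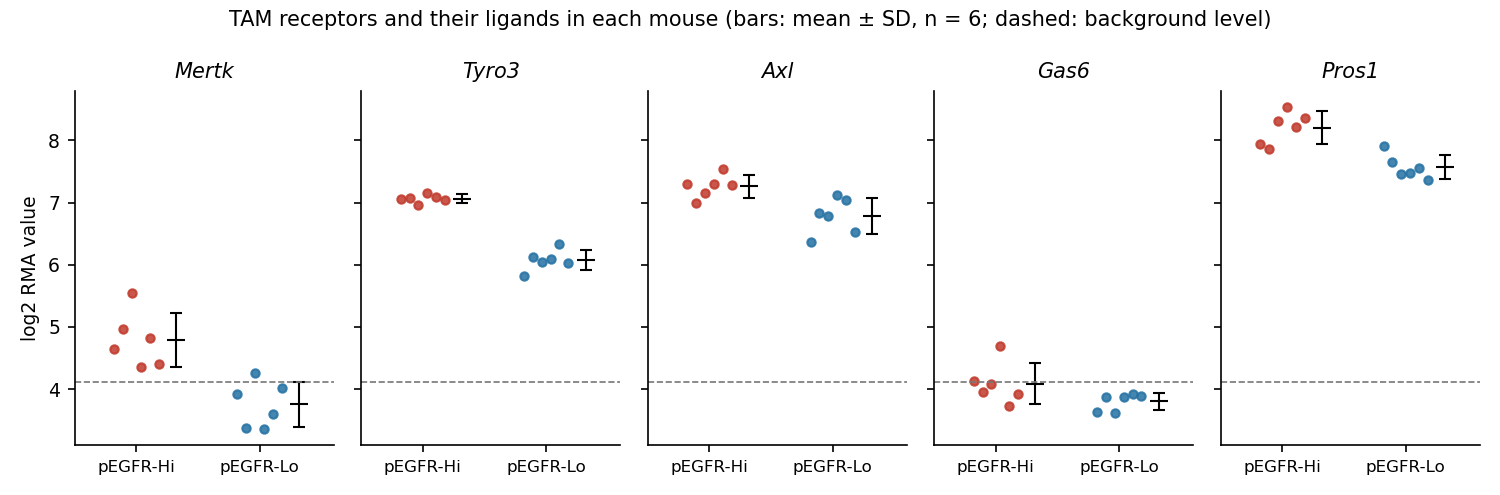
Log2 signal of the TAM receptors Mertk, Tyro3 and Axl and the ligands Gas6 and Pros1 in each mouse, pEGFR-Hi left of pEGFR-Lo, 6 mice a group, with bars for the mean ± SD and the background of 4.11 dashed. Mertk and Tyro3 do not overlap between groups, while Axl does and Gas6 stays near or below background.

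Both neurotrophin receptors among the members were lower in pEGFR-Hi, and Ntrk3 gave the lowest difference of the 61 members. Ntrk3, which encodes the NT-3 receptor TrkC, read 4.98, 5.47 and 5.73 in pEGFR-Hi mice, against 8.90, 9.14 and 9.22 in pEGFR-Lo mice. It was 13.2-fold lower in pEGFR-Hi (a difference of -3.72 ± 0.11 SE, adjusted p = 2.25e-12 from limma), and the groups lay more than 3 units apart. Ntrk2, which encodes the BDNF receptor TrkB, read 3.69, 3.91 and 4.21 in pEGFR-Hi mice, against 5.45, 5.69 and 5.91 in pEGFR-Lo mice. The pEGFR-Hi mean was below background, so Ntrk2 was at least 2.93-fold lower in pEGFR-Hi (a measured 3.29-fold; a difference of -1.72 ± 0.10 SE, adjusted p = 2.26e-09). A probe set sums the transcripts of a gene, and the full-length and truncated forms of TrkB and TrkC were not separated. Bdnf, a ligand of TrkB and no member, averaged 5.16 ± 0.24 in pEGFR-Hi and 5.82 ± 0.15 in pEGFR-Lo (SD, n = 6 each), 1.58-fold lower in pEGFR-Hi and not called (limma adjusted p = 1.80e-04). Ngfr, the p75 coreceptor of the neurotrophins, was called lower in pEGFR-Hi. Of 11 neuron markers 7 were at or below background in both groups, Stmn2 and Slc17a7 among them, and their mean level was 3.39 to 3.48 in pEGFR-Hi mice and 3.51 to 3.70 in pEGFR-Lo mice. None of the 11 was called, but Snap25 averaged 3.58 ± 0.11 in pEGFR-Hi and 4.40 ± 0.14 in pEGFR-Lo without overlap (limma adjusted p = 1.08e-06), and Gad1 averaged 4.72 ± 0.21 in pEGFR-Hi and 5.25 ± 0.24 in pEGFR-Lo (limma adjusted p = 0.00252). Their part in the Ntrk2 and Ntrk3 differences was not tested. Astrocytes also express truncated TrkB, and the astrocyte list given above had a lower mean level in pEGFR-Hi as well. Its part in the Ntrk2 difference was not tested.

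Pleiotrophin was called lower in pEGFR-Hi, as was its receptor phosphatase Ptprz1, while Alk did not pass. Ptn, a heparin-binding growth factor of neural progenitors, read 9.47, 9.74 and 10.50 in pEGFR-Hi mice, against 11.07, 11.53 and 11.82 in pEGFR-Lo mice. It was 3.04-fold lower in pEGFR-Hi with no overlap (a difference of -1.60 ± 0.18 SE, adjusted p = 2.68e-06 from limma). Alk, a receptor kinase to which pleiotrophin has been reported to bind, read 3.57, 3.74 and 3.91 in pEGFR-Hi mice, against 4.28, 4.53 and 5.10 in pEGFR-Lo mice. The pEGFR-Hi mean was below background and Alk was at least 1.45-fold lower in pEGFR-Hi, short of the limit (limma adjusted p = 4.31e-05). Ptprz1, the receptor phosphatase that binds pleiotrophin and is no member, averaged 7.82 ± 0.25 in pEGFR-Hi and 9.90 ± 0.17 in pEGFR-Lo (SD, n = 6 each), 4.23-fold lower in pEGFR-Hi and called (limma adjusted p = 9.78e-10). Mdk, which encodes the related midkine, did not pass, at 4.33 ± 0.081 in pEGFR-Hi and 4.37 ± 0.19 in pEGFR-Lo (limma adjusted p = 0.81). Ret, the receptor of the GDNF family, was below background in both groups. Of the collagen receptors, Ddr1 averaged 7.74 ± 0.17 in pEGFR-Hi and 7.99 ± 0.28 in pEGFR-Lo. Ddr2 averaged 7.36 ± 0.16 in pEGFR-Hi and 7.38 ± 0.34 in pEGFR-Lo (SD, n = 6 each), and neither receptor was called by limma or SAM or had an unadjusted p under 0.05 (limma adjusted p = 0.14 and 0.93).

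Members differed in how far mice of 1 group spread. In pEGFR-Lo the SD was widest for Igfbp7 at 1.14, Fgf12 at 0.68 and Vegfa at 0.57, and narrowest for Ret at 0.081 and Igfbp2 at 0.091. In pEGFR-Hi it was widest for Vegfa at 0.54 and Igfbp5 at 0.51, and narrowest for Igfbp3 at 0.065 and Tyro3 at 0.069. Igfbp7 and Fgf12 shared their low pEGFR-Lo mice, 4 and 5, and Vegfa was lowest in pEGFR-Lo mice 3 and 6. Within pEGFR-Lo the spread of these genes thus did not come from the same arrays. In pEGFR-Hi, Vegfa was higher in mice 1, 3 and 5 (10.14, 9.54 and 10.22) than in mice 2, 4 and 6 (9.13, 9.19 and 8.97). This split was not particular to Vegfa. Fgf1, Ptn, Ntrk3, Igfbp2 and Pdgfa, among others, were also higher in each of mice 1, 3 and 5. So was the mean level of the interferon-stimulated genes (8.49, 8.66 and 9.06, against 8.08, 7.99 and 7.84). Fgf11, Igf1r and Igf2r were lower in those mice instead. These genes were named after their values were seen, and the split was not tested.

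**Figure D4:**
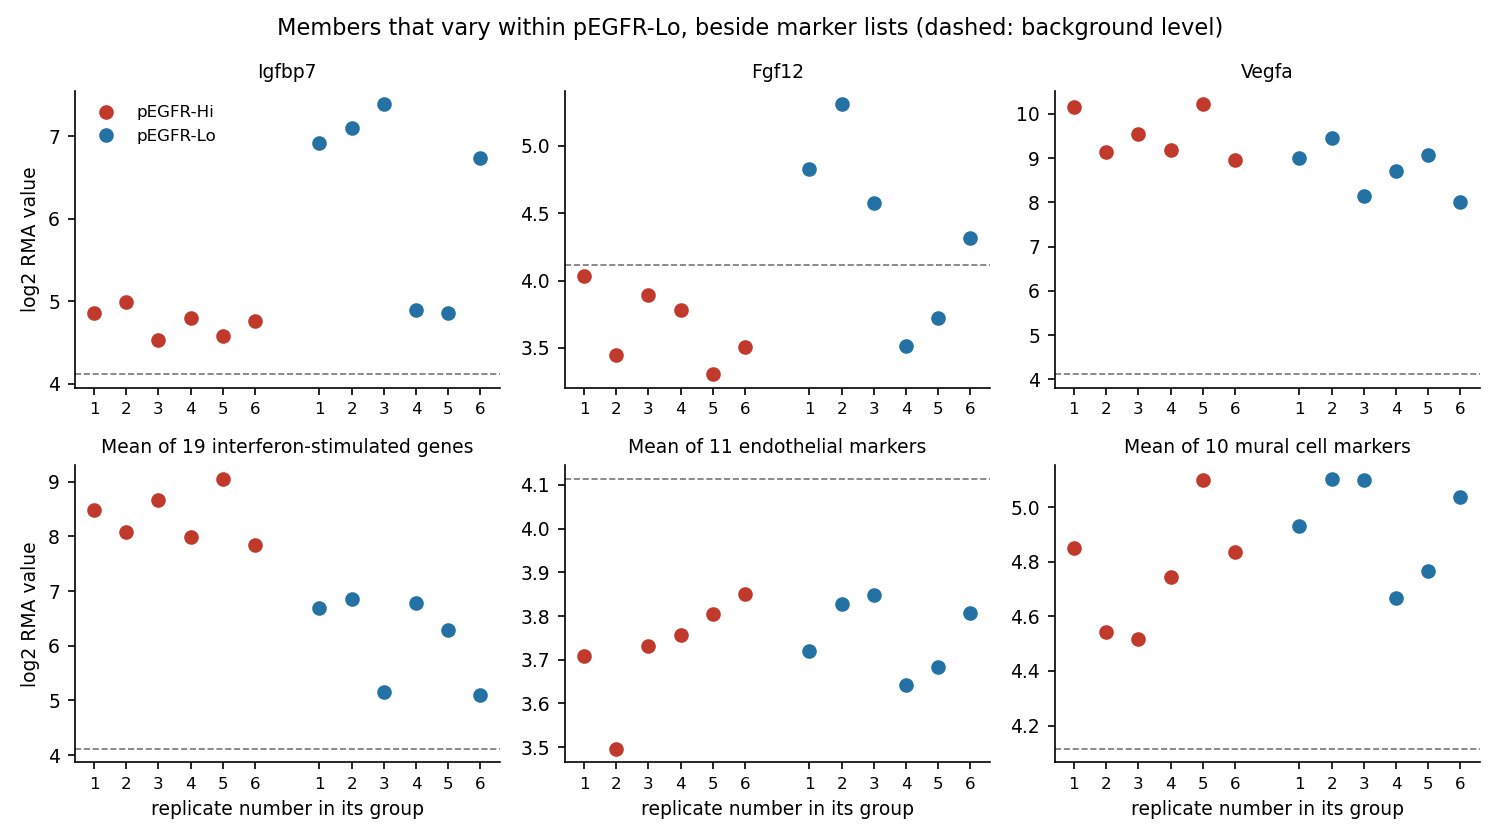
Log2 signal of Igfbp7, Fgf12 and Vegfa in each mouse (top) and the mean log2 signal of 19 interferon-stimulated genes, 11 endothelial and 10 mural cell markers (bottom), with pEGFR-Hi mice 1 to 6 left of pEGFR-Lo mice 1 to 6 and the background dashed; axes differ by panel. Igfbp7 and Fgf12 are low in pEGFR-Lo mice 4 and 5, and Vegfa and the interferon-stimulated genes in pEGFR-Lo mice 3 and 6.

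Genes that act with these receptors were counted on a list of 133 measured genes that are no members (142 listed). Of these 2 were called higher in pEGFR-Hi (1.5%) and 16 lower (12%), again beside 3.99% and 5.06% of all genes, and the median difference was -0.08. Among 22 further receptors limma and SAM called 0, with 4 higher and 6 lower in pEGFR-Hi at an unadjusted p under 0.05, near the 23% and 19.8% of all genes at that limit. Of 18 further ligands 2 were lower in pEGFR-Hi. Angpt2, which loosens vessels through TIE2, averaged 5.52 ± 0.17 in pEGFR-Hi and 8.59 ± 0.28 in pEGFR-Lo (8.42-fold lower, limma adjusted p = 2.96e-11, n = 6 each). Il34, a ligand of the macrophage receptor CSF1R, averaged 5.87 ± 0.22 in pEGFR-Hi and 8.10 ± 0.56 in pEGFR-Lo (4.70-fold lower, limma adjusted p = 3.29e-07). The means of their receptors Tek and Csf1r were below background in both groups.

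Coreceptors and proteins that modify ligands, 31 genes, gave both calls that were higher in pEGFR-Hi. Of the 31, 6.45% were called higher and 16.1% lower, beside 3.99% and 5.06% of all genes. Flrt2, a membrane protein of a family that interacts with FGF receptors, averaged 5.26 ± 0.58 in pEGFR-Hi and 3.14 ± 0.10 in pEGFR-Lo (SD, n = 6 each), at least 2.22-fold higher (limma adjusted p = 4.62e-07). Spint1, an inhibitor of the protease that activates HGF, averaged 5.87 ± 0.39 in pEGFR-Hi and 4.79 ± 0.29 in pEGFR-Lo, 2.12-fold higher (limma adjusted p = 9.51e-05). Flrt3, of the same family as Flrt2, went the other way at 2.35-fold lower in pEGFR-Hi (limma adjusted p = 4.93e-07). Sulf2, which trims heparan sulfate and frees bound growth factors, was 3.98-fold lower (limma adjusted p = 1.19e-10), and Ptprz1, Ngfr and the GDNF coreceptor Gfra1 completed the 5 lower calls. Without pEGFR-Hi mouse 4 or 6 or pEGFR-Lo mouse 3 Spint1 was no longer called, which left 1 pathway gene higher, and without pEGFR-Hi mouse 5 the feedback gene Lrig3 was called as well, which made 3.

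Inside the cell, 7 of 44 adaptors and effectors were lower in pEGFR-Hi and none of the 44 higher, beside 5.06% and 3.99% of all genes. Shc4, an SHC adaptor known from melanoma, averaged 4.40 ± 0.18 in pEGFR-Hi and 7.03 ± 0.17 in pEGFR-Lo (SD, n = 6 each), 6.22-fold lower (limma adjusted p = 1.79e-11). Gab2, a docking protein that recruits PI3K, was 2.23-fold lower (limma adjusted p = 2.40e-08), and Grb14, which binds and inhibits the insulin receptor, was 2.96-fold lower (limma adjusted p = 2.50e-08). Pik3r3, Dok5, Gab1 and Shc2 were the other 4. Of 18 feedback and target genes, Dusp4, a phosphatase of MAP kinases, was 2.31-fold lower (8.21 ± 0.25 in pEGFR-Hi and 9.41 ± 0.18 in pEGFR-Lo; limma adjusted p = 5.44e-07) and Spry4, a Sprouty inhibitor of receptor signaling, 2.05-fold lower (10.05 ± 0.27 in pEGFR-Hi and 11.09 ± 0.16 in pEGFR-Lo; limma adjusted p = 3.54e-06). The Spry4 call, near the 2-fold limit, was lost without pEGFR-Hi mouse 3 or 5 or pEGFR-Lo mouse 6 and after another quantile normalization, each leaving 15 pathway genes lower. The median difference of the 18 feedback and target genes was -0.0021. At an unadjusted p under 0.05 limma had 5 of them higher and 8 lower in pEGFR-Hi, beside 23% and 19.8% of all genes.

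**Figure D5:**
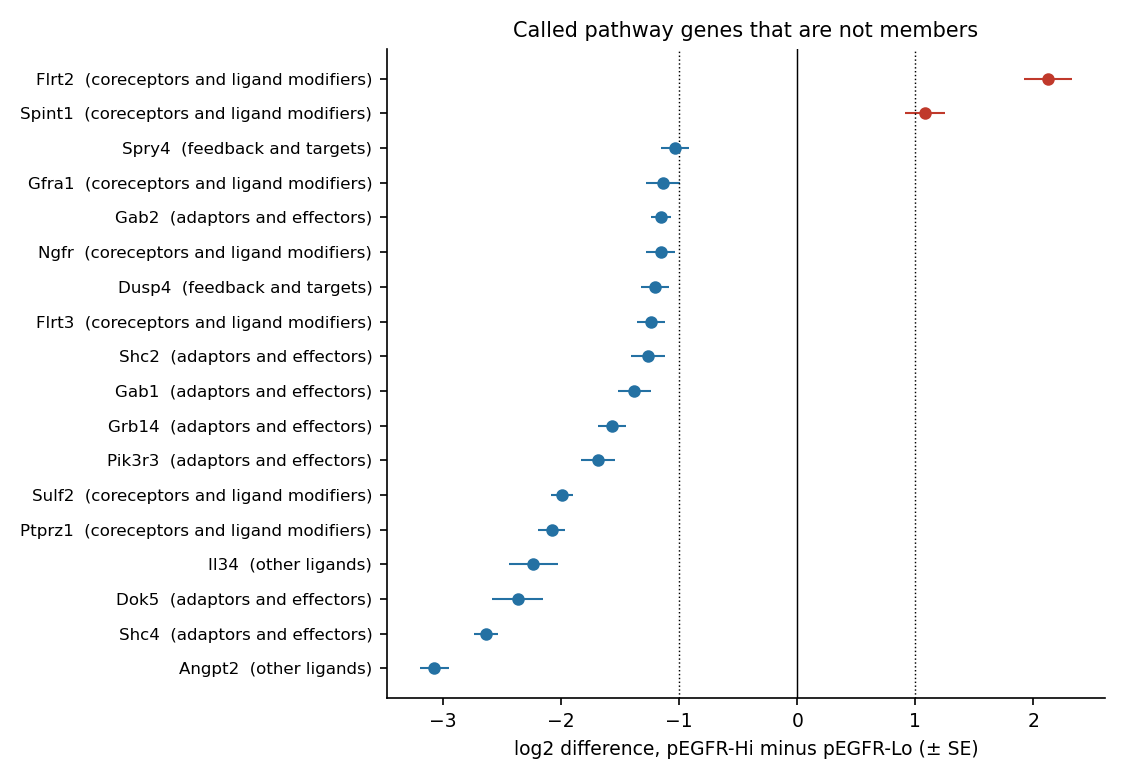
Difference in log2 signal, pEGFR-Hi minus pEGFR-Lo, with its standard error, for the 18 called pathway genes that are no members, each with its subgroup; dotted lines mark 2-fold. Flrt2 and Spint1 lie to the right (higher in pEGFR-Hi) and the other 16 to the left, with Angpt2 lowest at -3.07.

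In the gene order of GRCm38.p6, the 12 called members had 69 measured genes among their nearest 3 on either side. Of these, 7 were called in the member's own direction and 1 in the other. Over all genes, 9.05% were called in either direction, 3.99% higher and 5.06% lower in pEGFR-Hi. Kit lies between Pdgfra and Kdr, and neither of these receptor genes was called, at differences of -0.98 and 0.28. Fgf1 has Spry4 among its neighbours, which was also lower in pEGFR-Hi. Pdgfc has Gria2 and Glrb (differences of -4.21 and -1.29), Ptn has Dgki (-1.32) and Creb3l2 (-1.52), Igfbp7 has Adgrl3 (-2.35), all lower in pEGFR-Hi, and Mertk has Fbln7 (1.64), higher in pEGFR-Hi. Beside Mertk, Zc3h8 (0.70), Tmem87b (0.57) and Morrbid (0.55) also had higher means in pEGFR-Hi, under 2-fold with a limma adjusted p under 0.01. Beside Fgf1, Rnf14 (-0.72), Ndfip1 (-0.67) and Gm5820 (-0.75) had lower means at the same limits, and Arhgap26 (0.59) a higher one. Whether whole regions shifted together was not tested. Ttc23 beside Igf1r was the 1 neighbour called in the other direction (2.20). No neighbour was called for Kit, Ntrk2, Ntrk3, Fgf11, Igfbp3 or Insr, the last of which had 3 measured neighbours only. The neighbours with values here were named after their values were seen.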

How the data were processed

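RNA of ZsGreen-sorted tumor cells was measured on 12 Affymetrix Mouse Gene 1.0 ST arrays, 6 per group, with groups and replicate numbers taken from the sample labels. The authors deposited log2 values made with RMA in Affymetrix Expression Console, which corrects background, makes the distributions of arrays equal and combines the probes of a set. The program's version and the level of summary are not given in the sources used here. Before RNA extraction they dissociated brains with papain, removed myelin and red blood cells on Percoll and excluded dead cells with DAPI.

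Of 35556 probe sets, 21789 were paired with 1 gene symbol in the platform annotation, 1621 with several and 12146 with none, and those with 1 were used. Symbols of 21698 were updated by Entrez ID to RefSeq of GRCm38.p6, which also served for promoter windows and gene order. The brightest probe set per gene was kept (999 genes had more than 1; Insr was the only such member), leaving 19938 genes, 13489 with a mean above background. The deposited values were fitted with limma 3.58.1 (lmFit, eBayes) in R 4.3.3, with the data.table package (1.17.8) and, in Python 3.11.15, pandas 2.3.3, numpy 2.4.6 and matplotlib 3.10.9. All p-values were adjusted by Benjamini-Hochberg over all genes. SAM, the test of the paper's methods (run there in MeV), was an alternative here with 100 permutations, a false discovery rate of 1% and the same fold limit, and both codes were tested on simulated data. A fold against a mean not above background was computed against the background and written as "at least". The number of arrays limits the precision.

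The other alternatives were centring on array medians, another quantile normalization, array weights, leaving out dim genes, averaging a gene's probe sets, trend and robust options of eBayes, a replicate block, a looser limit (adjusted p under 0.05, any fold), leaving out each array, and leaving out pEGFR-Lo replicates 3 and 6. Named with full values were all called members, and of the pathway list up to 3 called genes per subgroup and direction with the smallest adjusted p; members with an adjusted p under 0.01 and under 2-fold were given by difference or range. Other genes with values (receptors, ligands and adaptors of called members, members beside them, and single cell type markers) were picked after their values were seen. The members and all lists were chosen with earlier results of these data known.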

Additional observations from a re-analysis of the deposited data

Results flagged for a closer look

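Of 122 groups of 6 mice (61 members in pEGFR-Hi and in pEGFR-Lo), 6 held a mouse whose gap to the nearest other mouse was a large part of the group's range by Dixon's criterion, which chance gives in about 1 in 20 groups. In pEGFR-Hi, mouse 3 was high for Fgf10 at 3.45 (the others 2.40 to 2.73, all below background), mouse 4 was low for Fgf22 at 4.45 (the others 4.75 to 4.90) and mouse 6 was low for Fgf4 at 4.11 (the others 4.42 to 4.53). In pEGFR-Lo, mouse 5 was low for Insr at 8.60 (the others 8.98 to 9.14), mouse 2 was low for Ntrk3 at 8.90 (the others 9.10 to 9.22) and mouse 2 was also low for Hgf at 2.42 (the others 2.69 to 2.85, below background). Of the members concerned, Insr and Ntrk3 were called, and both stayed called without the mouse in question.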

How the results depend on the processing

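Of 61 members, 1 was called higher and 11 lower in pEGFR-Hi, of 133 pathway genes 2 and 16, and of all genes 795 and 1009. With an adjusted p under 0.05 and no fold limit these became 5 and 20 members, 15 and 41 pathway genes and 3871 and 3314 genes. Centring on array medians gave 2 members higher in pEGFR-Hi, Tyro3 being added at a difference of 1.01, and moved the median over all genes to 0.033 from 0.010 as deposited. Leaving out 1 array gave 0 to 2 members higher and 10 to 11 lower, 1 to 3 and 15 to 17 pathway genes, and 774 to 846 and 991 to 1031 of all genes. Mertk was lost without pEGFR-Hi replicate 3 or pEGFR-Lo replicate 2 or 4, and Igfbp7 without pEGFR-Lo replicate 1, 2, 3 or 6. Without pEGFR-Lo replicates 3 and 6 together, 1 member was higher and 10 lower, Igfbp7 being lost (a difference of -1.19, limma adjusted p = 0.0309). SAM called the same 12 members, and 799 genes higher and 1009 lower in all. Same-numbered arrays correlated at -0.137 to 0.0974 after removing group means, and 2 of 12 arrays correlated best with their own number. Same-numbered arrays thus showed no clear shared deviation, but whether those mice were handled together cannot be told from these values. With the replicate number as a block the counts were 1 and 11 members, 2 and 16 pathway genes, and 801 and 1008 of all genes. Over 21 genes and 461 alternative values, 440 kept their call status, 12 were gained, 9 were lost and 0 changed direction. Met had no value under the filter on dim genes, which removed it. For the 15 members below background in both groups, Met among them, no fold can be given.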

Other observations

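Several genes of the same pathways had an adjusted p under 0.01 with less than a 2-fold difference, and those given here were chosen after their values were seen. Flt1, which encodes VEGFR1, averaged 5.04 ± 0.31 in pEGFR-Hi and 4.21 ± 0.16 in pEGFR-Lo (SD, n = 6 each), 1.78-fold higher with no overlap (limma adjusted p = 8.84e-05), although most endothelial markers were at background in both groups. Within PI3K signaling, Pik3r1, the regulatory subunit that binds receptors, averaged 7.88 ± 0.13 in pEGFR-Hi, against 8.73 ± 0.21 in pEGFR-Lo (limma adjusted p = 4.95e-06). Akt2, a kinase downstream of it, averaged 9.67 ± 0.15 in pEGFR-Hi, against 10.35 ± 0.13 in pEGFR-Lo (limma adjusted p = 1.32e-05). Pik3ca and Pik3r2 were lower as well (differences of -0.48 and -0.53, limma adjusted p = 0.00183 and 0.00592). Pik3cd had a higher mean in pEGFR-Hi (0.35, limma adjusted p = 0.00803), and Akt1 and Pik3cb differed by 0.087 and -0.046. Spred3, of a family that inhibits RAS-MAPK signaling, averaged 5.74 ± 0.039 in pEGFR-Hi, against 6.64 ± 0.23 in pEGFR-Lo (limma adjusted p = 1.94e-06). Etv5, an ETS factor that FGF and other receptor signaling induces, averaged 11.33 ± 0.11 in pEGFR-Hi, against 11.75 ± 0.043 in pEGFR-Lo (limma adjusted p = 2.01e-04). The other ETS factors listed, Etv4 and Etv1, had higher means in pEGFR-Hi (differences of 0.38 and 0.26, limma adjusted p = 0.0539 and 0.0481). Lrig3 of the same feedback list was 1.96-fold higher (limma adjusted p = 9.40e-07). The mice of the groups did not overlap for Flt1, Pik3r1, Akt2, Spred3 or Etv5.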
